A study of Mus musculus with 10 samples.

Results

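Glycolysis and hypoxia response genes were followed in the colitic mouse colon as a set of 40 named genes. They were listed by their textbook roles and chosen with earlier results of these data known. They were matched by gene symbol to the array, with the probe set of highest mean used for each gene, and 38 of the 40 were measured among 19505 named genes. Gpi1, which codes for glucose-6-phosphate isomerase, and Eno1, which codes for an enolase, had no named probe set and were not analysed here. The set holds 2 glucose transporters, 13 measured glycolytic enzymes, 2 PFKFB enzymes that set the level of a glycolysis activator, 4 genes of lactate and pyruvate fate, 4 genes of oxygen sensing and 13 targets of the hypoxia-inducible factors (HIF) outside glycolysis.

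The ECP group was 5 arrays of complete colon tissue from wild-type C57BL/6 mice given 3% of the colitis-inducing polymer DSS (dextran sulfate sodium) by drinking water, anti-PD1 intraperitoneally and a transplant of ECP-treated donor cells. The control group was 5 arrays of the same tissue, strain and genotype, from mice given DSS and anti-PD1 without the donor cells. ECP is extracorporeal photopheresis, the exposure of leukocytes outside the body to a photosensitiser and ultraviolet A light. Age, sex and the number of mice per array are not given in the labels, no array of healthy colon was analysed here, and DSS with anti-PD1 is shared by all arrays, so no level can be set against an uninflamed colon.

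Glycolysis splits glucose into pyruvate in the cytosol, and lactate dehydrogenase with the lactate exporter removes the product when it outruns the mitochondria. Under low oxygen the prolyl hydroxylases that mark HIF alpha subunits for destruction slow down, HIF accumulates, and it binds short DNA motifs near genes of glycolysis, acid balance, mitophagy and collagen hydroxylation. The colon mucosa lives next to an anaerobic lumen, so part of this programme is active in its surface epithelium without disease. Much of HIF control acts on the protein, which an array of transcripts does not measure.

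Values are log2 intensities after robust multi-array averaging (RMA), and differences are ECP minus control on that scale. Array medians lay between 6.94 and 6.98, and pairwise correlations between arrays between 0.977 and 0.996. The label of colon fits its markers: the 12 epithelial markers, such as Epcam, Cdx2 and Car1, had mean levels of 11.90 to 12.01 in the ECP arrays and 11.69 to 12.005 in the control arrays. Pancreatic acinar markers (8 measured of 10) stood at 5.90 to 6.16 in the ECP arrays, against 10.71 in control replicate 1, 12.50 in control replicate 4, 7.09 in control replicate 5 and 6.12 to 6.26 in the other control arrays. Smooth muscle markers were also lowest in control replicates 1 and 4 (9.43 and 9.78, against 10.17 to 10.30 in the other control arrays and 9.98 to 10.55 in the ECP arrays). Proliferation markers were lower in the ECP arrays in 9 of 10 genes, with mean levels of 8.07 to 8.24, against 8.42 to 8.69 in the control arrays, and the part of proliferating cells in the members' values was not tested. Control replicate 4 had in addition the highest B cell (8.79) and neutrophil (8.38) marker levels of the 10 arrays. Without control replicates 1 and 4 the difference turned its sign in 7 of 38 members and kept it but moved by over 1.5 times in 16, and those values are given by role, with all arrays and without these 2. Fewer cells of a type cannot be told apart from less RNA per cell in this tissue.

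No member passed the threshold. The limma fit over all genes called 0 of 38 members and 0 of 19505 genes (0%) at an adjusted p under 0.05, and the smallest adjusted p among the members was 0.700. At an unadjusted p under 0.05, 4 members (10.5%) were past the mark, all higher in the ECP arrays, against 991 genes (5.08%) in either direction and 450 genes (2.31%) in the higher and 541 (2.77%) in the lower direction among all genes. These were Aldoc, Egln1, Slc16a3 and Car12. The count was 2 (5.26%), Aldoc and Egln1, without ECP replicate 2, ECP replicate 4, ECP replicate 5 or control replicate 3, near the 4.44%, 4.24%, 5.06% and 5.45% of all genes in these fits. It was 6 without ECP replicate 1, of which 5 were higher and Eno2 was lower, against 4.64% of all genes. In direction alone, 32 of 38 members (84.2%) had the higher mean in the ECP arrays and 6 the lower, against 53.3% higher among all genes. The shares of members carry no p, because the members were chosen with earlier results known. The median difference of the members was 0.06, beside 0.01 for all genes. Groups did not overlap for 0 members, against 1.22% of all genes (0.39% higher and 0.831% lower). With each array weighted by its fit, 7 members (18.4%) had an unadjusted p under 0.05, all higher, against 6.35% of all genes and 2.83% in the higher direction.

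**Figure D1:**
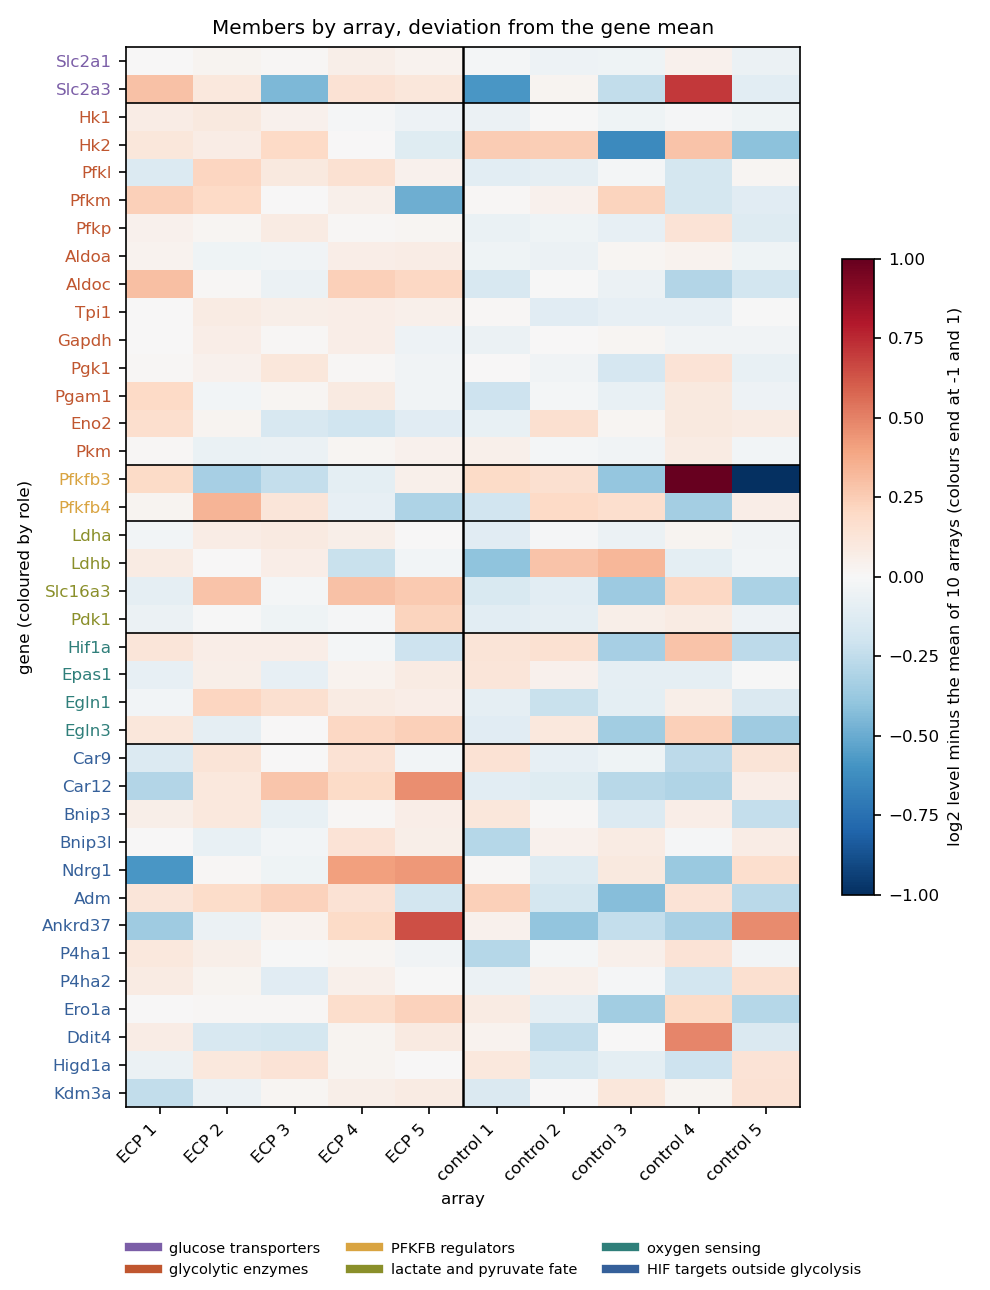
Level of each of the 38 measured members on each array as a colour, on the log2 scale minus the gene's mean over the 10 arrays, with the 5 ECP arrays on the left, the 5 control arrays on the right and genes in blocks by role. Control replicates 3 and 5 share low values of Hk2, Hif1a, Egln3 and Ero1a, and Pfkfb3 has its extremes in control replicates 4 and 5.

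The promoters of the members that led this comparison, and of the pair Hif1a and Hk2 that varied together over the arrays, are shown here because HIF binds a core motif of A or G followed by CGTG. The sequences are from RefSeq on build GRCm38.p6, 250 bases before to 50 after a start site, written 5′ to 3′ on the gene's strand, with capitals for ACGTG or GCGTG on either strand. For Aldoc the first of its 2 listed promoters is shown.
Aldoc, chr11:78322823-78323122, plus strand: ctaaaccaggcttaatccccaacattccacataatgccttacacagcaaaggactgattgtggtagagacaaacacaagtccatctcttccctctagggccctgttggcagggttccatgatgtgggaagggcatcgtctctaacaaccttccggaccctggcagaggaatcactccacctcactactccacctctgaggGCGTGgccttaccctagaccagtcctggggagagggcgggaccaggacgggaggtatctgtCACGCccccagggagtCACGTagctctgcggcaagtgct
Egln1, chr8:124949205-124949504, minus strand: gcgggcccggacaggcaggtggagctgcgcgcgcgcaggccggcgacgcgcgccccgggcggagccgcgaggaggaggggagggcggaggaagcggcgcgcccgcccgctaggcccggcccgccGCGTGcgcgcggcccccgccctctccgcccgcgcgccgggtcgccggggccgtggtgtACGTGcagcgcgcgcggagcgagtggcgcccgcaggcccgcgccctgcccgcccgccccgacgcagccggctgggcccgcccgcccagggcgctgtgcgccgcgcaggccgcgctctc
Slc16a3, chr11:120948817-120949116, plus strand: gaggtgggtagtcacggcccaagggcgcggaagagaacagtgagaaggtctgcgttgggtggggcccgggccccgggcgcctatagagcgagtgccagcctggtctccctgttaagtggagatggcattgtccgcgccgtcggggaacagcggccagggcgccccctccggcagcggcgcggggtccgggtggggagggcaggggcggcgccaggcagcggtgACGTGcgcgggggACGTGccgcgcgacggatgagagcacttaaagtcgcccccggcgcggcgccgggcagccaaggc
Car12, chr9:66713436-66713735, plus strand: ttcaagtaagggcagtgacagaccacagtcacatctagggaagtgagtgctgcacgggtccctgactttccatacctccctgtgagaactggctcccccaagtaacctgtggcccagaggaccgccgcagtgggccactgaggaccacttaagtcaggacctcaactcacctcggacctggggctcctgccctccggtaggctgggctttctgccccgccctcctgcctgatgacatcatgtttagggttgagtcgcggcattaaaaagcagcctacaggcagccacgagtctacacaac
Hif1a, chr12:73907617-73907916, plus strand: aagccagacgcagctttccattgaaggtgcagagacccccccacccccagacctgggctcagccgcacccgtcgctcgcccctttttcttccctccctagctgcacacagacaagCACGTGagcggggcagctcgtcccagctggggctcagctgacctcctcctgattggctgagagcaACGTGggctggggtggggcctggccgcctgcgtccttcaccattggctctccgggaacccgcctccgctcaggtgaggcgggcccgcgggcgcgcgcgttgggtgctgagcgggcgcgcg
Hk2, chr6:82774405-82774704, minus strand: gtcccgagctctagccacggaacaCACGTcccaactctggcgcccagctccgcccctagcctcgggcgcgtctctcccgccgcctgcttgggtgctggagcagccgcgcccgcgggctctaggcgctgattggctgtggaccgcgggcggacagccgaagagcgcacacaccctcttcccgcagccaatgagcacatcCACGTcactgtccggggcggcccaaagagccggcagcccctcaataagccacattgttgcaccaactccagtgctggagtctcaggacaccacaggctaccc
Of the 38 measured members 34 matched this table, with 47 promoters, and Slc2a3, Epas1, Bnip3l and Ndrg1 are named only. ACGTG, which overlaps its own opposite-strand match where CACGTG occurs, was found in 27 of 47 member promoters (57.4%) and in 19.6% of all 32851 promoters, and GCGTG in 26 (55.3%) and in 32.4% of all promoters. Slc16a3 holds ACGTG 27 and 14 bases before its start site, Egln1 holds ACGTG 68 bases before it, and Car12 holds neither motif in this window. ACGTG was in 11 of 21 promoters of glycolytic enzymes (52.4%) and in 8 of 13 promoters of HIF targets outside glycolysis (61.5%). A match of these letters is a description and does not show binding. The members were listed in part as HIF targets, and the full set of promoters was not matched to them in base content. Windows of the same gene can overlap and share a site, as in Aldoa and Pfkm.

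The glucose transporter transcripts of the set overlapped between the groups. Slc2a1, the facilitative glucose transporter of most tissues, was at 11.55, 11.58, 11.57, 11.61 and 11.59 in the ECP arrays, against 11.53, 11.50, 11.51, 11.60 and 11.49 in the control arrays. All ECP arrays lay above every control array other than control replicate 4. The difference was 0.05 (SE 0.05, 95% interval -0.06 to 0.17). For Slc2a1 the limma p was 0.333 unadjusted and 0.998 adjusted, and the unadjusted exact permutation p was 0.0476. Slc2a3, a high-affinity transporter of neurons and leukocytes, averaged 5.76 ± 0.28 in the ECP arrays and 5.68 ± 0.48 in the control arrays (SD, n = 5 each), with control replicate 4 highest at 6.43. Its difference was 0.08 (95% interval -0.38 to 0.54), and 0.15 without control replicates 1 and 4. The level of Slc2a3 lay below the median of every array.

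Among the 13 measured glycolytic enzymes 11 had the higher mean in the ECP arrays and 2 had the lower, with a median difference of 0.06 and a range of -0.11 for Eno2 to 0.28 for Aldoc. Aldoc codes for aldolase C, the aldolase best known from brain. It was at 8.91, 8.62, 8.56, 8.86 and 8.82 in the ECP arrays, against 8.45, 8.61, 8.56, 8.33 and 8.43 in the control arrays. All ECP arrays other than replicate 3 lay above every control array, replicate 2 by a narrow margin, and ECP replicate 3 lay just below control replicate 2. The difference was 0.28 (SE 0.09, 1.21-fold, 95% interval 0.09 to 0.47), with a limma adjusted p of 0.700 and an exact permutation p of 0.0159 (two-sided, over all splits of the 10 arrays, with a smallest possible p of 0.00794). Leaving out single arrays moved the difference between 0.24 and 0.33, and without control replicates 1 and 4 it was 0.22 (SE 0.10).

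Pfkl codes for the liver form of phosphofructokinase, which commits sugar to glycolysis. It was at 9.58, 9.93, 9.81, 9.87 and 9.76 in the ECP arrays, against 9.61, 9.62, 9.70, 9.54 and 9.74 in the control arrays. All ECP arrays other than replicate 1 lay above every control array, with a difference of 0.15 (SE 0.08, adjusted p = 0.998 by limma). The other phosphofructokinase genes differed by 0.07 for Pfkp, the platelet form (10.995 ± 0.029 in ECP arrays and 10.925 ± 0.102 in control arrays, SD, n = 5 each), and by 0.00 for Pfkm, the muscle form (7.11 ± 0.29 and 7.11 ± 0.15). Tpi1, triosephosphate isomerase, was at 11.22, 11.30, 11.27, 11.28 and 11.26 in the ECP arrays, against 11.23, 11.10, 11.13, 11.13 and 11.21 in the control arrays. Only control replicate 1 reached into the ECP range of Tpi1. The Tpi1 difference of 0.11 (SE 0.06) had a limma p of 0.0818 unadjusted and 0.998 adjusted, and an unadjusted exact permutation p of 0.0159.

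Pgam1, a phosphoglycerate mutase, was at 10.50, 10.27, 10.32, 10.38 and 10.26 in the ECP arrays, against 10.09, 10.27, 10.22, 10.40 and 10.24 in the control arrays. The groups overlapped through most of this range. The difference of 0.10 (SE 0.07) was 0.06 without ECP replicate 1 or without control replicate 1. Eno2, the neuronal enolase, ran the other way, at 5.83, 5.69, 5.51, 5.47 and 5.55 in the ECP arrays, against 5.59, 5.82, 5.68, 5.76 and 5.75 in the control arrays. Its difference was -0.11 (SE 0.08, 95% interval -0.29 to 0.07), its level lay below the median of every array, and markers of enteric neurons averaged 6.69 ± 0.10 in ECP arrays and 6.47 ± 0.16 in control arrays, (SD, n = 5 each), with 4 of 5 markers higher. The part of the neuron markers in it was not tested. Hk1, Aldoa, Gapdh, Pgk1 and Pkm, which code for a hexokinase, the main aldolase, glyceraldehyde-3-phosphate dehydrogenase, phosphoglycerate kinase and pyruvate kinase, differed by 0.06, 0.04, 0.04, 0.06 and -0.02. The 95% intervals of these 5 genes ran from -0.15 for Pkm to 0.20 for Pgk1. Without control replicates 1 and 4 the difference was 0.12 for Pgk1, 0.12 for Pfkp, 0.02 for Gapdh, 0.02 for Pkm and -0.05 for Pfkm, the last 2 with their sign turned.

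Hk2 codes for the inducible hexokinase. It was at 10.55, 10.51, 10.64, 10.45 and 10.32 in the ECP arrays, against 10.70, 10.68, 9.80, 10.73 and 10.03 in the control arrays. The ECP arrays lay in the gap between 3 high and 2 low control arrays, replicates 3 and 5. The group difference of 0.11 (SE 0.18, limma adjusted p = 0.998) turned to -0.04 without control replicate 3 and was 0.02 without control replicate 5. It was 0.32 (unadjusted p = 0.0836 and adjusted p = 0.797 by limma) without control replicates 1 and 4. A fit that took the acinar level, highest in those same arrays, as a covariate gave 0.35 for Hk2.

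The PFKFB enzymes make and remove fructose 2,6-bisphosphate, the strongest activator of phosphofructokinase. Pfkfb3, the form induced by inflammation and hypoxia, was at 7.96, 7.44, 7.53, 7.67 and 7.83 in the ECP arrays, against 7.97, 7.93, 7.38, 9.25 and 6.76 in the control arrays. The control arrays held both extremes, replicate 4 at the top and replicate 5 at the bottom, with an SD of 0.92 against 0.21 in the ECP arrays. The difference of -0.17 (SE 0.35) turned to 0.18 without control replicate 4 and to 0.33 without control replicates 1 and 4. Pfkfb4 averaged 8.27 ± 0.24 in the ECP arrays and 8.24 ± 0.23 in the control arrays (SD, n = 5 each), a difference of 0.04 that turned to -0.13 without control replicates 1 and 4.

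Lactate handling gave a further one of the leading members. Slc16a3 codes for the lactate exporter MCT4 and is a known HIF target in human cells. It was at 8.57, 8.94, 8.63, 8.95 and 8.92 in the ECP arrays, against 8.50, 8.55, 8.29, 8.86 and 8.34 in the control arrays. All ECP arrays lay above every control array other than control replicate 4, which sat between the 2 lower and the 3 higher ECP arrays. The difference was 0.29 (SE 0.12, 1.23-fold, limma adjusted p = 0.939, exact permutation p = 0.0397), and it was 0.41 (SE 0.11, adjusted p = 0.512) without control replicates 1 and 4. Ldha, the lactate dehydrogenase subunit that favours lactate, was at 12.02, 12.12, 12.14, 12.11 and 12.05 in the ECP arrays, against 11.94, 12.03, 11.99, 12.07 and 12.01 in the control arrays. The groups overlapped and differed by 0.08 (SE 0.06, 95% interval -0.04 to 0.20). For Ldha the limma p was 0.187 unadjusted and 0.998 adjusted, and the unadjusted exact permutation p was 0.0476. Ldhb, the subunit that favours pyruvate, differed by -0.04, and Pdk1, the kinase that holds pyruvate back from mitochondria, by 0.04. Without control replicates 1 and 4 the difference of Ldhb was -0.22 (unadjusted p = 0.0598 and adjusted p = 0.775 by limma). Ldhb was dim, with group means of 6.70 (ECP) and 6.74 (control) below the lowest array median of 6.94.

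The 4 oxygen sensing genes had differences of 0.01 to 0.20, and none passed the adjusted threshold. Hif1a was at 10.95, 10.89, 10.89, 10.81 and 10.62 in the ECP arrays, against 10.95, 10.98, 10.49, 11.11 and 10.57 in the control arrays. The ECP arrays lay within the control range, and the difference was 0.01 (SE 0.12, 95% interval -0.26 to 0.28), with a sign that turned in 5 of the 10 fits that left out an array (down to -0.07 without control replicate 3). Without control replicates 1 and 4 it was 0.15 (unadjusted p = 0.222 by limma). Epas1, which codes for the HIF alpha subunit typical of endothelium, averaged 9.41 ± 0.08 in the ECP arrays and 9.41 ± 0.09 in the control arrays (SD, n = 5 each), and its difference was 0.01, or 0.02 without control replicates 1 and 4.

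Egln1 codes for the main HIF prolyl hydroxylase and is itself a HIF target. It was at 9.43, 9.67, 9.62, 9.54 and 9.53 in the ECP arrays, against 9.37, 9.24, 9.36, 9.52 and 9.31 in the control arrays. All ECP arrays other than replicate 1 lay above every control array, and 4 of 5 control arrays lay below every ECP array. The difference was 0.20 (SE 0.07, 1.15-fold, 95% interval 0.04 to 0.36, limma adjusted p = 0.849, exact permutation p = 0.0159), and it was 0.26 (SE 0.07) without control replicates 1 and 4. Egln3, the hydroxylase most strongly induced by HIF in many cells, was at 10.09, 9.88, 9.98, 10.18 and 10.21 in the ECP arrays, against 9.86, 10.08, 9.63, 10.22 and 9.62 in the control arrays. Its control arrays spanned the ECP range, with replicates 3 and 5 low, and the difference was 0.19 (SE 0.12), or 0.12 without control replicate 3 or 5 and 0.29 (SE 0.12) without control replicates 1 and 4.

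The 13 HIF targets outside glycolysis had 11 members with the higher mean in the ECP arrays, 2 with the lower, a median difference of 0.07 and a range of -0.06 for Kdm3a to 0.30 for Car12. Car12 codes for a membrane carbonic anhydrase of the colon epithelium. It was at 9.47, 9.86, 10.04, 9.95 and 10.23 in the ECP arrays, against 9.65, 9.64, 9.48, 9.46 and 9.83 in the control arrays. All ECP arrays other than replicate 1 lay above every control array, while ECP replicate 1 lay near the bottom of the control range. The difference was 0.30 (SE 0.13, 1.23-fold, limma adjusted p = 0.951, exact permutation p = 0.0714), with 0.41 without ECP replicate 1 and 0.26 (SE 0.15) without control replicates 1 and 4. Car9, the carbonic anhydrase most used as a hypoxia marker, was at 8.94, 9.21, 9.08, 9.22 and 9.05 in the ECP arrays, against 9.22, 8.998, 9.04, 8.82 and 9.21 in the control arrays. The groups covered much the same range, and the difference of 0.04 (SE 0.09) turned to -0.015 without control replicate 4 and was 0.02 without control replicates 1 and 4.

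Ero1a, an oxidase of disulfide bond formation, was at 10.21, 10.22, 10.22, 10.38 and 10.44 in the ECP arrays, against 10.29, 10.12, 9.86, 10.40 and 9.92 in the control arrays. Adm, which codes for the vasodilator peptide adrenomedullin, was at 8.04, 8.10, 8.15, 8.07 and 7.73 in the ECP arrays, against 8.15, 7.75, 7.49, 8.05 and 7.65 in the control arrays. In both genes control replicates 2, 3 and 5 were the 3 lowest control arrays. Control replicates 1 and 4 lay inside the ECP range, except that control replicate 1 was slightly above every ECP array in Adm. Differences were 0.17 (SE 0.11) for Ero1a and 0.20 (SE 0.13) for Adm with all arrays, and 0.33 (SE 0.09) and 0.39 (SE 0.10), each with a limma adjusted p of 0.512, without control replicates 1 and 4. Both were also smaller without control replicate 3, at 0.11 and 0.12.

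Of the other 9 HIF targets, 7 had the higher mean in the ECP arrays, by 0.02 to 0.18, and 2 had the lower. Ankrd37, an ankyrin repeat gene much used as a HIF target, averaged 7.88 ± 0.37 in the ECP arrays and 7.70 ± 0.35 in the control arrays (SD, n = 5 each), and Ndrg1, a stress-induced gene of differentiated epithelium, 10.70 ± 0.41 and 10.61 ± 0.21. The mitophagy receptor genes Bnip3 and Bnip3l differed by 0.07 and 0.04, and the collagen prolyl hydroxylase genes P4ha1 and P4ha2 by 0.06 and 0.02. Higd1a, a mitochondrial protein gene, differed by 0.09, Ddit4, an inhibitor of mTOR signalling, by -0.06, and Kdm3a, a histone demethylase gene, by -0.06. Ddit4 was highest in control replicate 4 at 9.90, against 9.18 to 9.45 in the other control arrays and 9.24 to 9.50 in the ECP arrays. Without control replicates 1 and 4 the sign turned in Ddit4 (0.10), Bnip3l (-0.05) and P4ha2 (-0.06), and the difference was 0.16 for Bnip3, 0.03 for P4ha1, 0.00 for Ndrg1 and -0.12 for Kdm3a. Across the whole set, 25 of 38 members (65.8%) had the larger SD in the control arrays, the same share as among all genes (65.8%).

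**Figure D2:**
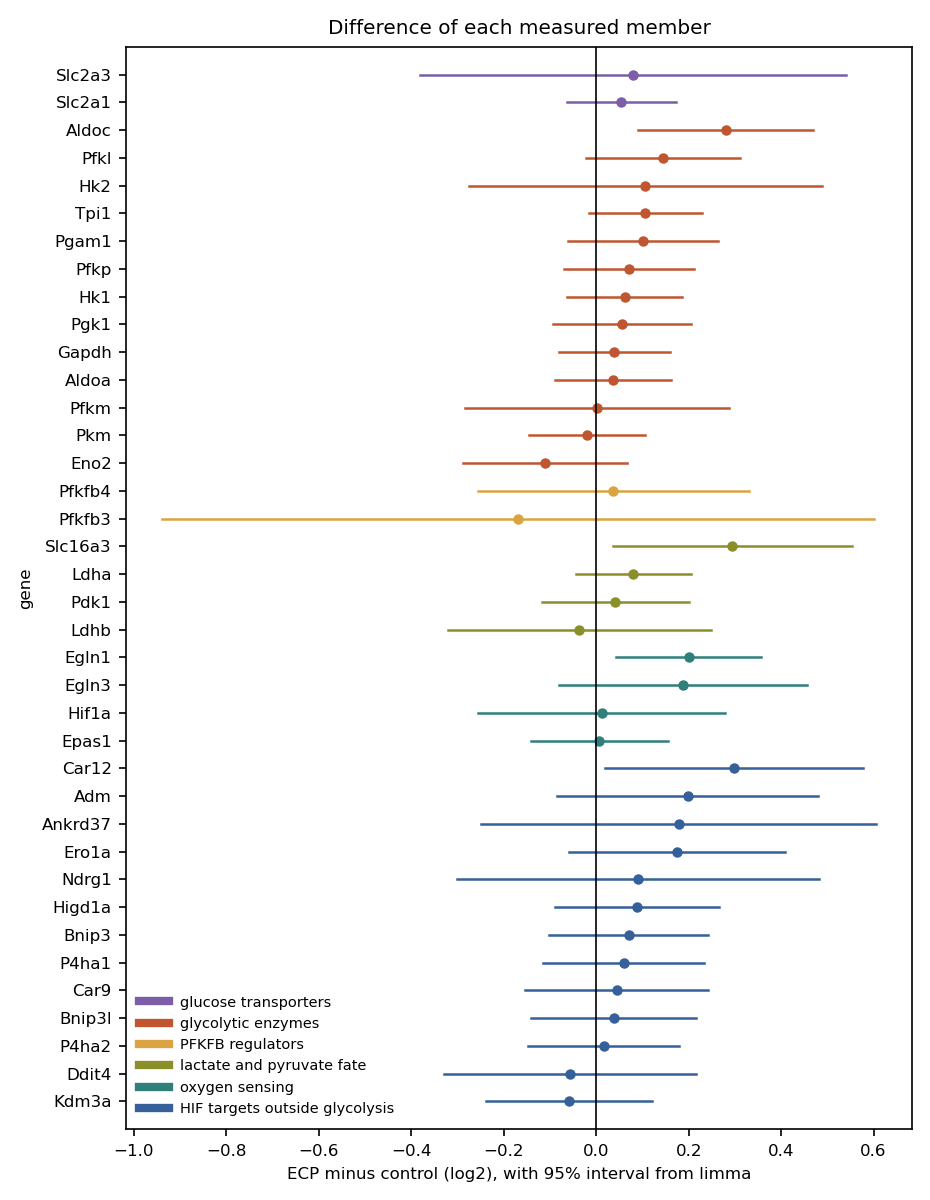
Difference of each measured member, ECP minus control on the log2 scale (points), with its 95% interval from limma (lines), grouped by role. Only Aldoc, Slc16a3, Egln1 and Car12 have intervals that leave out 0, and Pfkfb3 has the widest interval.

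**Figure D3:**
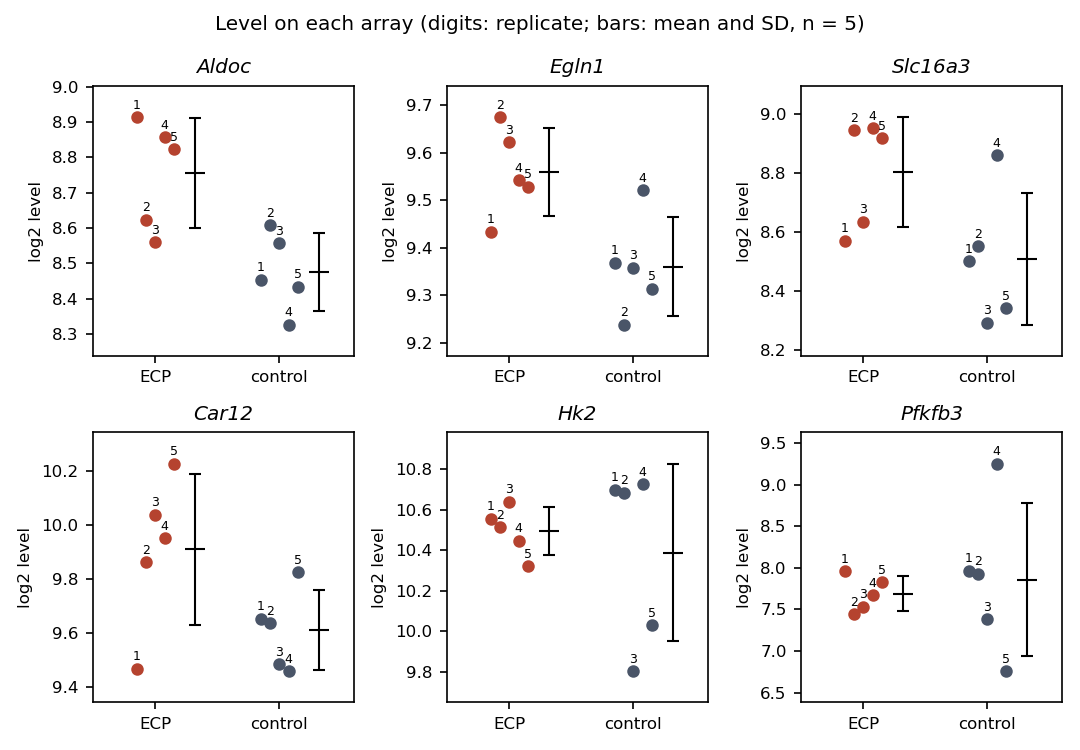
Log2 level of 6 members on each array, with the replicate number beside each point and the mean and SD of the 5 arrays of a group as bars. Aldoc, Egln1, Slc16a3 and Car12 lie mostly higher in the ECP arrays but overlap, while the control arrays of Hk2 and Pfkfb3 lie on both sides of the ECP arrays.

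Without control replicates 1 and 4, the arrays with the highest acinar levels, 6 members (15.8%) had an unadjusted p under 0.05 and all were higher in the ECP arrays, against 6.6% of all genes and 2.89% in the higher direction. They were Aldoc, Slc16a3, Egln1, Egln3, Adm and Ero1a. Car12 was no longer among them. None had an adjusted p under 0.05 (smallest 0.512, limma). With the acinar level as a covariate the count was 5 (13.2%, all higher, against 5.11% of all genes and 2.11% in the higher direction), without Aldoc (0.20) and Car12 (0.25). The acinar level had an SD of 0.12 in the ECP arrays and 2.90 in the control arrays, where replicates 1 and 4 were highest. The covariate fit therefore leans on the same control arrays and is no separate check. The part of the acinar tissue in the values of all arrays was measured only through these fits.

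Glycolytic enzymes and HIF targets outside glycolysis did not separate. The mean level of the 13 enzymes was 10.23, 10.20, 10.18, 10.19 and 10.12 in the ECP arrays, against 10.12, 10.16, 10.08, 10.16 and 10.07 in the control arrays. That of the 13 HIF targets was 9.02, 9.14, 9.13, 9.23 and 9.25 in the ECP arrays, against 9.10, 9.01, 9.02, 9.06 and 9.14 in the control arrays. ECP replicate 1 was highest for the enzymes and lowest of the ECP arrays for the HIF targets, and ECP replicate 5 was the reverse. Group differences in mean level were 0.07 for the enzymes and 0.09 for the HIF targets. The enzymes minus the HIF targets averaged 1.03 ± 0.13 in the ECP arrays and 1.05 ± 0.08 in the control arrays (SD, n = 5 each), a difference of -0.02 that lay within the spread of either group and was -0.07 when ECP replicate 1 was left out and 0.02 when ECP replicate 5 was. Since the members were chosen with earlier results known, these class levels carry no p.

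**Figure D4:**
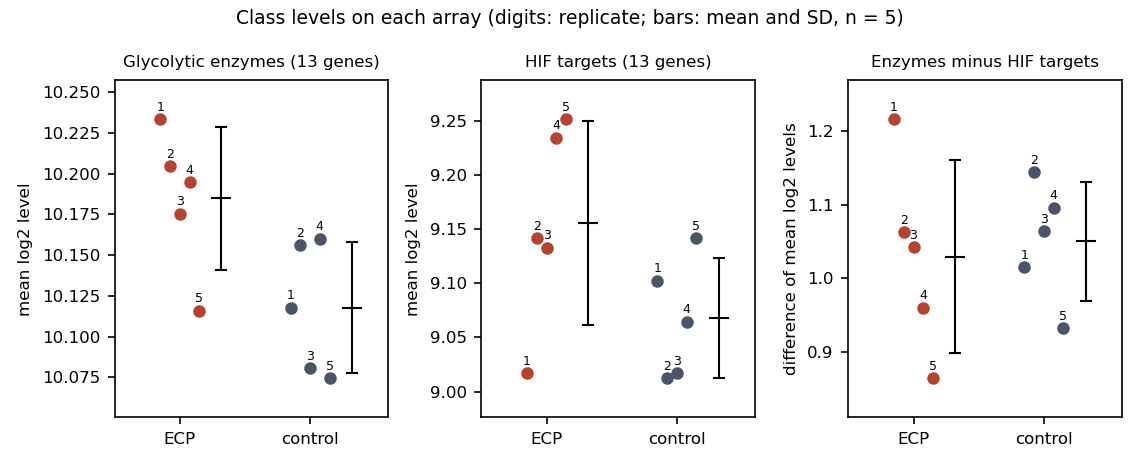
Mean log2 level of the 13 glycolytic enzymes (left), of the 13 HIF targets outside glycolysis (middle) and their difference (right) on each array, with replicate numbers and with the mean and SD of 5 arrays as bars. The differences between the classes overlap, at 0.86 to 1.22 in the ECP arrays and 0.93 to 1.14 in the control arrays.

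Single members also varied between arrays within the groups, and these differences were set against neutrophil markers. Macrophage, B cell and T cell levels were not set against the members. Control replicate 4 was highest of the 10 arrays in B cell (8.79), T cell (6.95) and acinar (12.50) levels, and ECP replicate 1 in macrophage level (8.98). The mean level of 7 neutrophil markers, among them S100a8, Csf3r and Cxcr2, was 6.88 to 7.49 in the ECP arrays and 6.21 to 8.38 in the control arrays, lowest in control replicate 5 and highest in control replicate 4. Across the 10 arrays Pfkfb3 followed it (Pearson r = 0.972, permutation p = 0.00011, adjusted 0.00418; Spearman rho = 0.952, permutation p = 0.0001, adjusted 0.0038; 38 relations). Without control replicates 4 and 5, the arrays farthest from the median, r was 0.873, and without control replicates 1 and 4 it was 0.950. Within the groups, after each group's mean was taken off, r was 0.978. Pkm followed the neutrophil markers less closely (r = 0.812, permutation p = 0.00263, adjusted 0.04997; rho = 0.879, permutation p = 0.00161, adjusted 0.0306), with r of 0.921 without control replicates 4 and 5 and 0.613 without control replicates 1 and 4. The other 36 relations had adjusted permutation p-values of Pearson's r of 0.0692 or more. All arrays share 1 normalisation, and the relations were looked for after the values had been seen.

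Hk2 followed Hif1a across the 10 arrays. Pearson r was 0.943 (permutation p = 1e-05, the smallest that 100000 permutations can give, adjusted 0.00037) and Spearman rho 0.976 (permutation p = 1e-05), among 37 relations of Hif1a with the other members. Without control replicates 3 and 5, which are low in both genes, r was 0.913, and without control replicates 1 and 4 it was 0.947. Of the 37 relations with Hif1a, 21 were positive and 16 negative by Pearson's r. Only that of Hk2 had an adjusted permutation p under 0.05. Among the HIF targets outside glycolysis r with Hif1a took both signs. It was positive for Adm (0.76), Bnip3 (0.67), Ero1a (0.55), Ddit4 (0.30) and P4ha1 (0.05). It was negative for Ndrg1, Kdm3a (-0.62), Ankrd37 (-0.58), P4ha2 (-0.48), Bnip3l (-0.47), Car9 (-0.38), Car12 (-0.32) and Higd1a (-0.27). Of the oxygen sensing genes, Egln3 had r = 0.58, Egln1 0.20 and Epas1 -0.03. Pgk1 had r = 0.810 with Hif1a (permutation p = 0.0037, adjusted 0.0684), and 0.555 without control replicates 3 and 5. Ndrg1 ran opposite to Hif1a, with r of -0.65 and rho of -0.79 (permutation p = 0.0412 and 0.00906, adjusted 0.236 and 0.112). With the neutrophil level as a covariate, 6 members (15.8%, against 6.27% of all genes and 2.93% in the higher direction) had an unadjusted p under 0.05: Aldoc, Slc16a3, Egln1, Egln3, Car12 and Ero1a, all higher in the ECP arrays, with adjusted p-values of 0.589 or more (limma). Their differences at equal neutrophil level were 0.28, 0.30, 0.20, 0.20, 0.29 and 0.19.

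**Figure D5:**
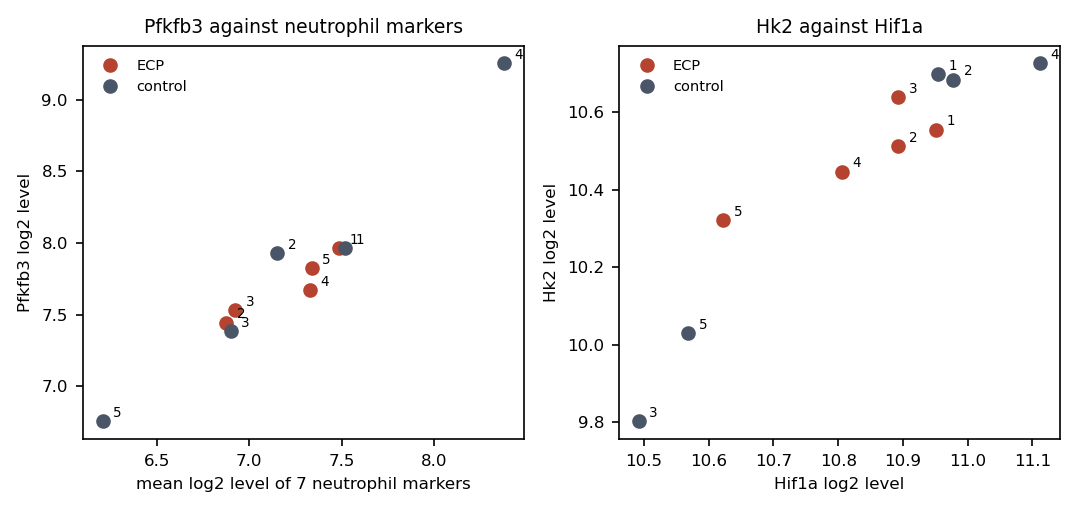
Log2 level of Pfkfb3 against the mean log2 level of 7 neutrophil markers (left) and of Hk2 against Hif1a (right), with 1 point per array and its replicate number. The ECP points lie between the extremes of the control points on both panels, with control replicate 4 at the top and control replicate 5 or 3 at the bottom.

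Other genes of these pathways were read from lists of 84 genes, of which 74 were measured. Of these, 46 (62.2%) had the higher mean in the ECP arrays and 28 the lower, 3 were higher and 1 lower at an unadjusted p under 0.05 (5.41% in all, near the 5.08% of all genes), and 0 passed the adjusted threshold. In the other glycolysis and pyruvate genes 15 of 23 were higher. Slc2a4, the insulin-regulated glucose transporter of fat and muscle, averaged 7.14 ± 0.23 in the ECP arrays and 6.82 ± 0.27 in the control arrays (SD, n = 5 each), a difference of 0.32 (SE 0.14, limma adjusted p = 0.956). Adipocyte markers were also higher, with mean levels of 6.24 to 7.31 in the ECP arrays and 5.80 to 6.91 in the control arrays (7 of 7 higher), and their part in the Slc2a4 value was not tested. Hkdc1, a hexokinase family gene, differed by 0.45 (SE 0.22), the fructose transporter gene Slc2a5 by 0.35 (SE 0.19) and Bpgm, which makes 2,3-bisphosphoglycerate, by 0.15 (SE 0.08).

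Among 28 measured further hypoxia response genes 17 were higher and 11 lower. Vegfa, the main angiogenic growth factor gene, was at 9.004 to 9.25 in the ECP arrays, against 8.75 to 9.05 in the control arrays. The ranges met only narrowly, with a difference of 0.20 (SE 0.07, 1.15-fold, limma adjusted p = 0.862). Gys1, muscle-type glycogen synthase, differed by 0.14 (SE 0.07), Insig2, a sterol sensor partner, by 0.16 (SE 0.08) and Epo, erythropoietin, by -0.16 (SE 0.07), the last at levels of 4.56 to 4.83 in the ECP arrays and 4.76 to 4.99 in the control arrays, under the median of every array. Of 10 other HIF pathway genes 6 were higher, with the HIF beta subunit genes Arnt2 at a difference of 0.31 (SE 0.11, limma adjusted p = 0.822) and Arnt at 0.10 (SE 0.06), Rbx1, part of the ubiquitin ligase that removes HIF alpha, at 0.07 and Hif3a at 0.09.

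In gluconeogenesis 4 of 7 measured genes were higher, and in the pentose phosphate pathway 4 of 6, with 0 of these genes at an unadjusted p under 0.05. Slc37a4, the glucose-6-phosphate transporter gene, differed by 0.14, Fbp1 by 0.07, Pck1 by 0.11 and Fbp2 by -0.02. Pgd, Taldo1, Rpia and Rpe, enzymes of the pentose phosphate pathway, differed by 0.07, 0.08, 0.07 and 0.04. By limma, none of the 8 had an adjusted p below 0.998.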

How the data were processed

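RNA of colon tissue was labelled with biotin and measured on 10 single-colour arrays, 5 ECP and 5 control, grouped by sample title. The deposited table holds log2 intensities. Per the submitters' processing notes, the authors used RMA in the oligo package (versions not given). RMA corrects background, normalises probes by quantiles and summarises each probe set, so a shift common to most genes is removed. The table held 22203 probe sets, of which 19572 had a gene symbol in the platform annotation and 2631 were unnamed here. For 55 genes with several probe sets the highest mean was used, which concerned 0 members. No genome build is named, and the promoter coordinates are those of RefSeq.

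Genes were compared with limma 3.58.1 in R 4.3.3 (lmFit, then eBayes) as a two-sided test without covariates or a filter. Benjamini-Hochberg adjustment was over 19505 genes, with a threshold of 0.05. The same fit was first run on simulated data with changes larger than the difference of any member, a capped spread and independent values. That run therefore does not test the fit at the differences given here. Single genes also had an exact permutation p over all splits of the arrays. It was computed for the members only and not adjusted, so no share over all genes stands beside it. This exact p was 0.0714 for Pfkl, 0.167 for Ero1a, 0.175 for Pgam1, 0.190 for Eno2, 0.206 for Egln3 and 0.238 for Adm. It was 0.579 for Hk2, 0.643 for Car9, 0.722 for Pfkfb3 and 0.944 for Hif1a. Members not given on every array had an exact permutation p of 0.103 or more. Correlations used 100000 permutations (numpy 2.4.6). The labels do not say that arrays are separate mice, so p-values measure the spread between samples, and the number of arrays limits the precision. Values of every array are given for the 12 members with the smallest p and 8 members fixed for their roles (17 in all), and other pathway genes are the 4 with the smallest p in each list. The members, lists, tests and alternatives were chosen with earlier results of these data known, and the correlations and the neutrophil covariate after the values were seen. No array was dropped except where stated. Same-numbered arrays were not treated as pairs: correlations of their deviations from the group means ran from -0.24 to 0.08 over 5 pairs. Alternatives changed the normalisation, filter, probe set choice, variance model, weights, block, covariates and arrays included.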

Additional observations from a re-analysis of the deposited data

Results flagged for a closer look

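In 4 of 84 groups of 5 arrays (38 members and 4 class levels, each in both groups) 1 array lay apart: its distance from the nearest other array took up over 0.71 of the whole range, where chance gives about 4.2. ECP replicate 3 was low in Slc2a3 (5.27, next 5.83), ECP replicate 5 was high in Pdk1 (9.26, next 9.03) and low in Adm (7.73, next 8.04), and control replicate 1 was low in Bnip3l (9.96, next 10.24).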

How the results depend on the processing

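Of 23 alternatives, 10 left out an array. The 0 members past the adjusted threshold stayed 0 in all of them, with a smallest adjusted p of 0.424 (array weights). The 0 genes past the threshold became 1 without the lowest quartile of genes or with trend and robust options, 7 without genes below the median level, and 0 to 1 on leaving out single arrays. The 4 members with an unadjusted p under 0.05 became 7 with array weights (18.4%, against 6.35% of all genes) and ranged from 2 to 6 (5.26% to 15.8%, against 4.24% to 6.4% of all genes) on leaving out single arrays. On leaving out single arrays, members higher in the ECP arrays ranged from 28 to 33, the median difference from 0.04 to 0.10 for the enzymes, from 0.06 to 0.10 for the HIF targets and from 0.05 to 0.09 for all members, and the enzymes minus the HIF targets from -0.07 to 0.02. Of 17 members given on every array, 13 kept their direction under each alternative run, 22 for Eno2, which the filter at the median level removed, and 23 for the other 12. The exceptions were Hif1a (-0.070 to 0.085 on leaving out single arrays), Hk2 (-0.040 to 0.19), Car9 (-0.015 to 0.086, and -0.0037 with the acinar level as covariate) and Pfkfb3 (-0.44 to 0.18, and 0.049 with array weights, 0.33 without control replicates 1 and 4, 0.45 with the acinar level and 0.21 with the smooth muscle level as covariate), and the cause was not tested. With the replicate block the members with an unadjusted p under 0.05 by limma were again 4 (10.5%, against 4.54% of all genes), the same genes. The smallest adjusted p of a member in that fit was 0.986 (limma). Of the 5 ECP arrays, 0 correlated best with the control array of their own number. Detection calls were not used here, so dim genes such as Eno2, Slc2a3, Ldhb and Epo have no stated distance from background.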
